A study of Mus musculus with 12 samples.

Results

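The genes described here encode the secreted WNT ligands, their Frizzled (Fzd) receptors, the R-spondins with their Lgr receptors, and the secreted inhibitors of the Sfrp and Dkk families. They were taken as every protein-coding gene named Wnt, Fzd, Lgr4 to Lgr6, Rspo, Sfrp or Dkk followed by a number, which gave 44 of the 54532 genes in the count table: 19 Wnt, 10 Fzd, 3 Lgr, 4 Rspo, 4 Sfrp and 4 Dkk genes. Expression was measured by bulk poly-A RNA-seq in cells sorted from mouse fetal ovaries at E15.5 (E, embryonic day). From E12.5 to E15.5 the pregnant dams received an intraperitoneal injection each day, either of saline or of the synthetic glucocorticoid dexamethasone (dex, 10 µg per g). All embryos carried the Pou5f1-ΔPE-eGFP transgene, in which Pou5f1 regulatory sequence drives GFP in germ cells, and the sort separated germ cells (GFP-positive) from all somatic cells (GFP-negative). There were 4 groups of 3 libraries (germ cells after saline or dex, and somatic cells after saline or dex), labelled as biological replicates, and each library held cells from ovaries pooled over more than 1 litter. The somatic fraction was everything without GFP, so it mixed pregranulosa, stromal, surface, vascular and blood cells.

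WNT ligands are lipid-modified secreted proteins that bind a Frizzled receptor together with a co-receptor. In the canonical branch this stabilises beta-catenin, which then acts with TCF/LEF factors in the nucleus. R-spondins bind Lgr receptors and raise the sensitivity of a cell to WNT, whereas Sfrp proteins bind WNTs outside the cell and most Dkk proteins block the Lrp5 and Lrp6 co-receptors. In the fetal ovary Rspo1 and Wnt4 are required for the female programme of the somatic cells, and the glucocorticoid receptor is a transcription factor that dex activates.

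The libraries held 14658503 to 18245507 counts. A floor of 3 counts per library corresponded to 0.169 to 0.196 CPM (the count scaled to library size, with trimmed-mean factors), and these limits cover counting error only. The sort was checked with marker lists. The summed level of 7 germ cell markers was 2465 to 3027 CPM in germ cell libraries and 2.88 to 20.5 CPM in somatic libraries. In the germ cell libraries pregranulosa markers reached a median of 9.55% of their somatic level after saline (range 7.09% to 12.9%) and 16.2% after dex (3.68% to 18.9%), while stromal markers reached 0.675% and 0.631%. Dex responses were checked with 5 glucocorticoid receptor target genes, of which 5 rose in somatic cells and 2 (Per1 and Zbtb16) in germ cells. The third somatic dex library stood apart from its group: its counts differed from those of the other 2 by a chi-square per degree of freedom of 16.3 and 21.8, against 5.48 to 10.2 for all other replicate pairs. Its pregranulosa marker sum was 699 CPM, against 464 and 491 CPM in the other 2 dex libraries and 607 to 660 CPM after saline. Its stromal sum, most of it from collagen genes, was 18987 CPM against 24313 and 25034 CPM. Results that rest on this library are given with and without it.

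Most of the 44 genes were expressed in somatic cells. A mean of at least 1 FPKM (fragments per kilobase of gene length, scaled to depth, the measure used here to compare genes) was reached by 28 members in saline somatic cells and by 17 in saline germ cells, and at least 10 FPKM by 14 and 1. Of 36 members tested between the saline libraries, 28 were lower and 4 higher in germ cells (edgeR's quasi-likelihood test with p-values adjusted by Benjamini-Hochberg over all genes tested, called at an adjusted p of at most 0.05, as throughout). Over all genes 86.1% were called in this comparison, 42.9% lower and 43.1% higher, so the share of members called in either direction (88.9%) was near the background. The median log2 difference of the members was -3.54, against 0.00 over all genes tested. Among the dex libraries 26 were lower and 6 higher in germ cells of 38 tested, with 84.3% of all genes called (42.2% lower and 42% higher). Wnt1, Wnt3a, Wnt8b, Wnt10b, Dkk1 and Dkk4 did not pass the low-count filter of any comparison.

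**Figure D1:**
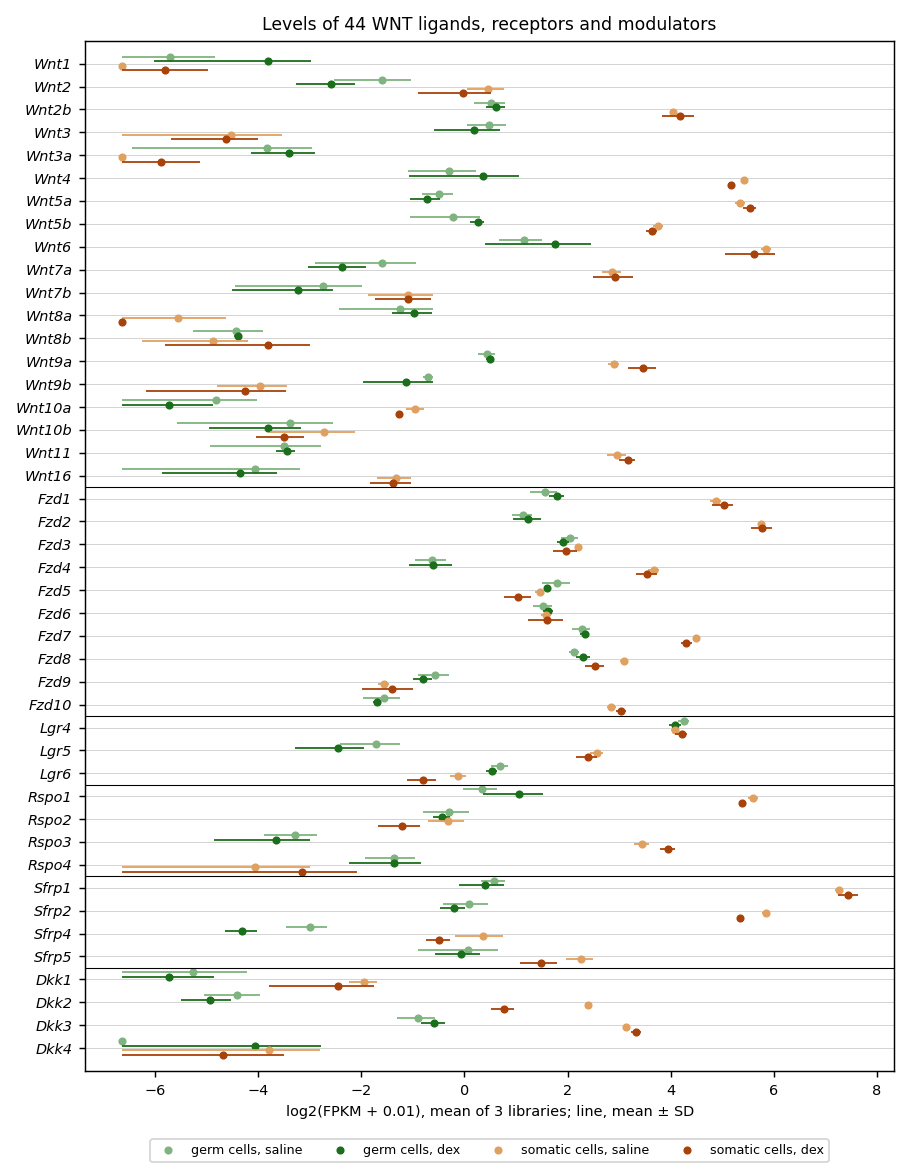
Level of each of the 44 members on the log2(FPKM + 0.01) scale. Points are means of 3 libraries in each group, lines run from the mean minus 1 SD to the mean plus 1 SD, and horizontal rules separate the families. Most somatic points lie to the right of the germ cell points, with Lgr4, Fzd3, Fzd5 and Fzd6 close together and Wnt3 and Wnt9b to the right in germ cells.

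The ligands with the highest somatic levels were Wnt6 at 57.7 ± 4.2 FPKM (SD, n = 3, saline), Wnt4 at 42.7 ± 1.5 FPKM and Wnt5a, a ligand best known for beta-catenin-independent signalling, at 40.8 ± 2.5 FPKM. The means of Wnt4 and Wnt5a differed by less than the SD of Wnt5a. In germ cells no ligand exceeded the 2.21 ± 0.63 FPKM of Wnt6. Wnt5a was at 345, 307 and 333 CPM in the 3 saline somatic libraries and at 4.39, 5.37 and 6.67 CPM in the saline germ cell libraries, a log2 difference of -5.90 (SE 0.12, edgeR adjusted p = 4.5e-15). The germ cell libraries held 1.67% of the somatic Wnt5a level, 1.84% of the Wnt4 level and 3.72% of the Wnt6 level, all below the median share of the pregranulosa markers and above that of the stromal markers. Whether these low values came from germ cells or from somatic RNA in the germ cell libraries was not tested.

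A few ligands went the other way. Wnt3, a canonical ligand, was at 5.35, 4.07 and 3.25 CPM in saline germ cells and at 0, 0.258 and 0.0606 CPM in saline somatic cells, so that the groups did not overlap (log2 difference 5.23, SE 0.56, edgeR adjusted p = 4.82e-07). After dex all 3 somatic libraries were at or under the floor of 3 counts per library, so the germ cell level of Wnt3 was higher by at least 19.9-fold. Wnt9b, known for the induction of kidney and genital tract tubules by the mesonephric duct, was at 2.52, 2.77 and 2.9 CPM in saline germ cells and 0.125, 0.387 and 0.242 CPM in saline somatic cells (log2 difference 3.40, SE 0.44, edgeR adjusted p = 3.94e-06). Wnt8a was tested between the cell types only after dex, where it was at 0.654, 0.842 and 1.13 CPM in germ cells and at 0 in all 3 somatic libraries, at least 5.02-fold higher. These are low levels: Wnt3 was at 1.38 ± 0.35 FPKM and Wnt9b at 0.605 ± 0.041 FPKM in saline germ cells (SD, n = 3).

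Several receptor genes differed little between the cell types. Fzd2 was the highest Frizzled gene in saline somatic cells at 53.6 ± 2.2 FPKM, followed by Fzd1 at 29.3 ± 2.3 and Fzd7 at 22.5 ± 0.89 FPKM (SD, n = 3). In saline germ cells the highest was Fzd7 at 4.82 ± 0.59 FPKM, and Fzd8 (4.36 ± 0.27) and Fzd3 (4.12 ± 0.46) followed. Fzd7 was at 18.6, 23.6 and 23.3 CPM in saline germ cells and at 109, 102 and 104 CPM in saline somatic cells, so the groups did not overlap. Fzd5 and Fzd6 did not pass the test between saline germ and somatic cells, with log2 differences of 0.29 (SE 0.14, edgeR adjusted p = 0.0664) and -0.11 (SE 0.14, edgeR adjusted p = 0.468). Fzd3 passed with a difference of only -0.21 (SE 0.09, edgeR adjusted p = 0.0405). Between the dex groups Fzd5 was called higher in germ cells (0.48, SE 0.15, edgeR adjusted p = 0.0107), and Fzd3 and Fzd6 were not called.

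Lgr4, an R-spondin receptor, was the member with the highest level in germ cells. Its saline level was 120.1, 109 and 106 CPM in germ cells and 102, 108 and 97.5 CPM in somatic cells, with overlapping groups (log2 difference 0.13, SE 0.07, edgeR adjusted p = 0.124). Per length this was 19.1 ± 1.4 FPKM in germ cells and 16.9 ± 0.8 FPKM in somatic cells (SD, n = 3). Lgr5, which marks surface epithelium and early pregranulosa cells, was lower in saline germ cells (log2 difference -4.37, SE 0.18, edgeR adjusted p = 6.66e-12). Lgr6 was 0.76 higher (SE 0.18, edgeR adjusted p = 0.00102), at 11.5, 9.56 and 11.7 CPM in germ cells and 5.58, 6.78 and 6.97 CPM in somatic cells. Of the R-spondin ligands of these receptors, Rspo1 was at 48.4 ± 3.1 FPKM and Rspo3 at 10.8 ± 1.1 FPKM in saline somatic cells, against 1.26 ± 0.29 and 0.0925 ± 0.035 FPKM in germ cells (SD, n = 3). Rspo2 did not pass the test between the saline groups (log2 difference -0.018, SE 0.28, edgeR adjusted p = 0.953), but after dex it was called higher in germ cells (0.73, SE 0.31, edgeR adjusted p = 0.0453).

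Sfrp1 had the highest level of all members, 154 ± 8.4 FPKM in saline somatic cells (SD, n = 3), and was at 1.48 ± 0.24 FPKM in germ cells. Sfrp2 followed among the inhibitors at 57.3 ± 2.4 FPKM. The Dkk genes were lower, with Dkk3, a divergent family member, at 8.78 ± 0.35 FPKM and Dkk2 at 5.27 ± 0.25 FPKM in saline somatic cells. Dkk1, the best studied inhibitor of the family, did not pass the filter and lay between 0.169 and 0.775 CPM in the somatic libraries.

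Dex was then compared with saline within somatic cells. Of 34 members tested 7 were called: Wnt9a and Rspo3 rose, and Dkk2, Sfrp2, Sfrp5, Fzd8 and Wnt4 fell. That is 20.6% of the members tested, against a background of 8.18% called over all 16556 genes tested (4.81% higher and 3.36% lower). The unadjusted p was under 0.05 for 16 of the 34 members, and for 3453 of all 16556 genes tested. The dex and saline libraries did not overlap for 16 members, 4 with dex above and 12 with dex below, which is 47.1%, against 25.6% of all genes tested. The median log2 fold change of the 34 was -0.13, against 0.00 over all genes. Of the 5 members that fell, 3 (Dkk2, Sfrp2 and Sfrp5) encode secreted inhibitors, of which 4 Sfrp and 2 Dkk genes were tested. The others were not called: Sfrp1 (0.18) and Dkk3 (0.20) had positive fold changes and Sfrp4 (-0.85) a negative one. In bulk samples fewer cells of a type and less RNA per cell cannot be told apart.

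Dkk2, which encodes a secreted ligand of the Lrp5 and Lrp6 co-receptors (ENSMUSG00000028031, GRCm38 chromosome 3, 132085292 to 132180304, plus strand), showed the largest change of the called members. It was at 19.0, 20.5 and 20.9 CPM after saline and at 5.61, 6.08 and 7.57 CPM after dex. Every dex library lay far below every saline library. The log2 fold change was -1.64 (SE 0.15, edgeR adjusted p = 1.13e-05), and over 13 alternative settings it ranged from -1.78 to -1.55 with a highest adjusted p of 0.000892. Dkk2 was at or under the floor in all saline and dex germ cell libraries, so it was at least 111-fold higher in saline somatic than in saline germ cells.

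Sfrp2 and Sfrp5, decoys with a Frizzled-like WNT-binding domain, also fell. Sfrp2 (ENSMUSG00000027996, chromosome 3, 83766321 to 83774316, plus strand) was at 131, 122 and 129 CPM after saline and at 86.2, 88.8 and 95.8 CPM after dex, with no overlap, a log2 fold change of -0.48 (SE 0.06, edgeR adjusted p = 0.000343). Sfrp5 (ENSMUSG00000018822, chromosome 19, 42197971 to 42202252, minus strand) was at 8.59, 8.2 and 11.2 CPM after saline and at 4.42, 4.9 and 6.93 CPM after dex. Its dex libraries also lay below all saline libraries, but its call (-0.78, SE 0.21, edgeR adjusted p = 0.0376) was lost in 7 of 13 alternatives (highest adjusted p 0.188), among them each that left out 1 library other than the third dex library. Sfrp1, the most abundant member of the family, was at 734, 674 and 671 CPM after saline and at 841, 836 and 664 CPM after dex. Its groups overlapped through the third dex library (log2 fold change 0.18, SE 0.09, edgeR adjusted p = 0.262), and without that library it was called at 0.28 (SE 0.06, edgeR adjusted p = 0.00741). Sfrp4 was not called at -0.85 (SE 0.28, edgeR adjusted p = 0.0836).

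Fzd8 (ENSMUSG00000036904, chromosome 18, 9212856 to 9216201, plus strand) was the only called receptor. Its somatic level was 28.6, 28.6 and 30.7 CPM after saline and 18.3, 18.3 and 22.8 CPM after dex. The groups did not overlap, and the log2 fold change of -0.56 (SE 0.11, edgeR adjusted p = 0.00782) was called in all 13 alternatives. The other 9 Frizzled genes were tested and not called, with fold changes from -0.42 for Fzd5 (SE 0.14, edgeR adjusted p = 0.0959) to 0.19 for Fzd10. Fzd2 was at 197, 198 and 212 CPM after saline and at 237, 197 and 185 CPM after dex, with overlapping groups.

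Among the ligands Wnt9a rose and Wnt4 fell. Wnt9a (ENSMUSG00000000126, chromosome 11, 59306928 to 59333552, plus strand) was at 26.2, 23.6 and 27.1 CPM after saline and at 34.3, 33.0 and 46.4 CPM after dex, with the third dex library highest. Its log2 fold change was 0.57 (SE 0.13, edgeR adjusted p = 0.0140). Without the third dex library it was 0.40 (SE 0.11, edgeR adjusted p = 0.0207), and the call was lost without the first saline library (adjusted p = 0.0513), without the second saline library (0.0717) and in limma's test on FPKM (0.0656). Wnt4 (ENSMUSG00000036856, chromosome 4, 137277489 to 137299726, plus strand) was at 179, 182 and 192 CPM after saline and at 146, 157 and 163 CPM after dex. The groups did not overlap, but the change was small at -0.24 (SE 0.06, edgeR adjusted p = 0.0373) and the call was lost in the same 7 of 13 alternatives as that of Sfrp5, with an adjusted p of up to 0.613.

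Wnt6 was at 119, 136 and 136 CPM after saline and at 89.7, 88.6 and 151 CPM after dex. The third dex library was above, and the other 2 below, every saline library, and the fold change of -0.24 (SE 0.16, edgeR adjusted p = 0.447) became -0.54 (SE 0.08, edgeR adjusted p = 8.88e-05) without the third. Wnt5a was at 345, 307 and 333 CPM after saline and at 405, 368 and 343 CPM after dex, an overlap by a single library (0.19, SE 0.07, edgeR adjusted p = 0.153). Wnt9b was at or below 0.387 CPM in every somatic library and was not tested there. The remaining ligands that were tested (Wnt2, Wnt2b, Wnt5b, Wnt7a, Wnt7b, Wnt10a, Wnt11 and Wnt16) had fold changes from -0.48 to 0.20 and none was called.

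Of the R-spondins only Rspo3 was called. Rspo3 (ENSMUSG00000019880, chromosome 10, 29452416 to 29535867, minus strand) was at 37.9, 34.5 and 31.0 CPM after saline and at 51.9, 51.1 and 43.7 CPM after dex. All dex libraries were above all saline libraries, and the log2 fold change of 0.51 (SE 0.10, edgeR adjusted p = 0.00541) was called in all 13 alternatives. Rspo1 was at 95.2, 91.4 and 103 CPM after saline and at 79.0, 82.6 and 86.8 CPM after dex. Its groups did not overlap either, but it was not called at -0.21 (SE 0.07, edgeR adjusted p = 0.0771). Rspo2 was not called at -0.91 (SE 0.30, edgeR adjusted p = 0.0925), and lay at 1.53 to 4.79 CPM in the 6 libraries.

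No Lgr gene was called. Lgr4 was at 102, 108 and 97.5 CPM after saline and 103, 111 and 122 CPM after dex, with overlap (0.14, SE 0.07, edgeR adjusted p = 0.327). Lgr5 was at 67.6, 57.5 and 62.9 CPM after saline and at 50.8, 49.9 and 64.2 CPM after dex. The first 2 dex libraries lay below all saline libraries and the third among them, and without the third Lgr5 was called at -0.31 (SE 0.08, edgeR adjusted p = 0.0231). Lgr6 was not called at -0.69 (SE 0.22, edgeR adjusted p = 0.0763), with 5.58, 6.78 and 6.97 CPM after saline and 3.34, 3.71 and 4.87 CPM after dex. Dkk3, the other Dkk gene tested, was at 30.5, 29.2 and 31.4 CPM after saline and at 34.8, 32.4 and 36.9 CPM after dex, apart but not called (0.20, SE 0.09, edgeR adjusted p = 0.231).

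**Figure D2:**
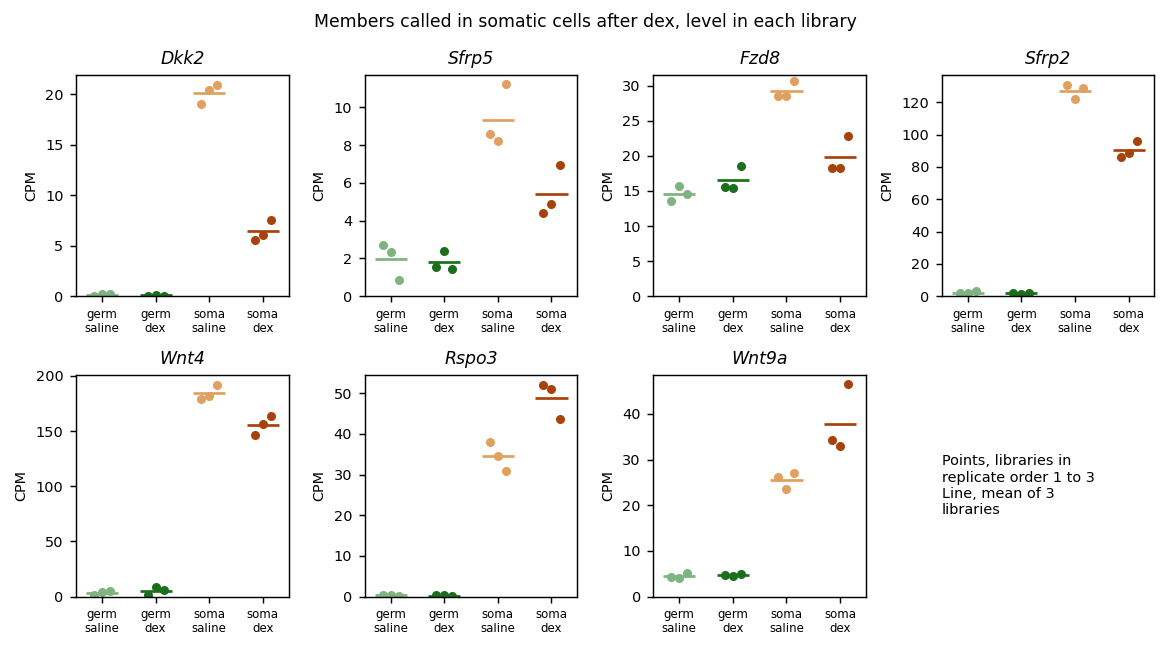
CPM of the 7 members called in somatic cells, in each of the 12 libraries. Points are libraries in the order of replicates 1 to 3 and lines are means of 3 libraries. In each panel the somatic dex points do not overlap the somatic saline points, and Dkk2 shows the widest gap (19.0 to 20.9 CPM against 5.61 to 7.57 CPM).

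Summed per length, the family totals of ligands and of Sfrp inhibitors overlapped between treatments. The 19 Wnt genes added up to 192, 192 and 206 FPKM in saline and 181, 178 and 217 FPKM in dex somatic libraries, and the Sfrp genes to 229, 209 and 214 FPKM and 231, 229.8 and 195 FPKM. The Dkk total was 14.2, 14.1 and 14.8 FPKM after saline and 11.96, 11.1 and 12.9 FPKM after dex, without overlap.

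Cell type marker sums in the same somatic libraries are given beside these genes. Relative to the mean of the saline libraries, the pregranulosa marker sum was 73.1% and 77.3% in the first 2 dex libraries and 110.1% in the third, and Wnt6 was at 68.8%, 68.0% and 116%. The stromal marker sum was 112%, 115% and 87.5%, and Sfrp1 was at 121%, 121% and 95.8%. Most of the stromal sum came from Col1a1, Col1a2 and Col3a1, with saline means of 7390, 5527 and 6752 CPM. Rspo3, at 151%, 148% and 127%, and Dkk2, at 27.9%, 30.2% and 37.6%, were on the same side of the saline libraries in all 3. Of the 7 pregranulosa markers 0 were called by edgeR in somatic cells (1 with an unadjusted p under 0.05), and 1 of 7 stromal markers, Pdgfra, rose. Pdgfra was at 589, 546 and 518 CPM after saline and at 875, 877 and 777 CPM after dex. Unlike the stromal sum, it was above saline in the third dex library too (0.62, SE 0.07, edgeR adjusted p = 0.000101). Macrophage markers fell for 4 of 6 genes, and their sum was 133 to 181 CPM after saline and 37.2 to 90.0 CPM after dex. Of 6 endothelial markers Cdh5 (-0.50) and Tie1 (-0.65) fell and Emcn (0.43) rose, of 5 perivascular markers Cspg4 rose (1.06), and of 8 mesonephric markers Calb1 fell (-0.74). Of the 4 germ cell markers tested Dazl rose by 3.43, from 0.970 to 1.36 CPM after saline to 12.4 to 12.8 CPM after dex. The germ cell marker sum was 2.88 to 6.07 CPM after saline and 15.2 to 20.5 CPM after dex, most of the latter from Dazl. Ddx4, Sycp3 and Mael were not called (0.65, 0.84 and 0.82), and Pou5f1 and Dppa3 were at 0 CPM in every somatic dex library. None of the surface or erythroid markers was called by edgeR (1 surface and 0 erythroid markers with an unadjusted p under 0.05). The part of cell composition in the changes of the WNT genes was not tested.

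Without the third dex library 15 members were called, with 11.1% of all genes called. The 7 were kept, and Sfrp1 and Wnt5a (higher) and Wnt6, Rspo1, Lgr5, Lgr6, Fzd3 and Fzd5 (lower) were added. Without the first saline library 4 were called (Dkk2, Sfrp2, Fzd8 and Rspo3), with 5.19% of all genes called. These 4 were the members called in every setting tried for somatic cells. Exons of Sfrp2 and Rspo3 overlap an antisense gene, and no setting addressed the uncertainty this leaves in their counts.

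**Figure D3:**
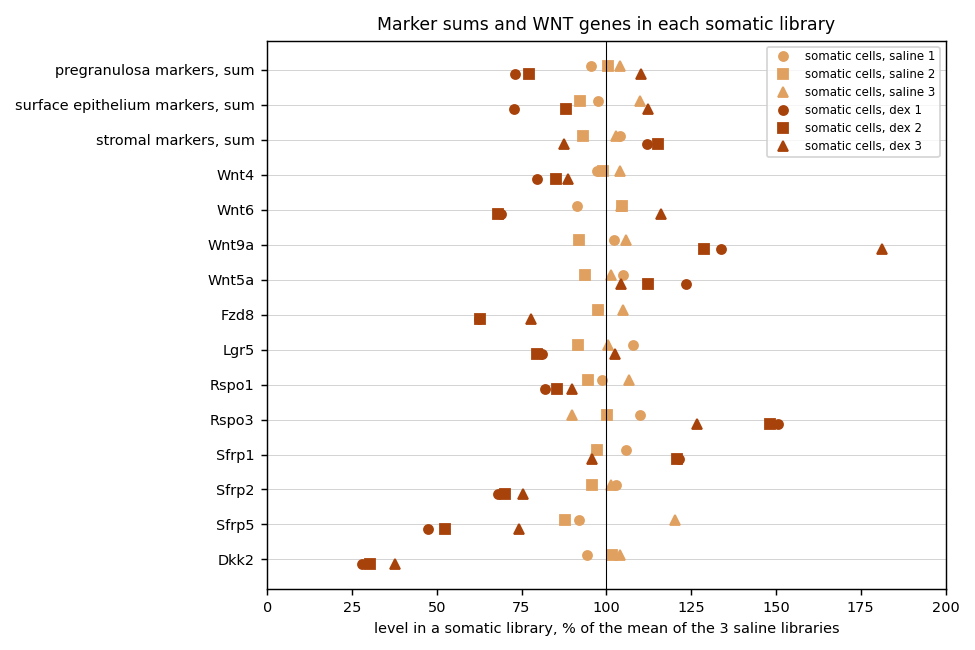
Level in each somatic library as a percentage of the mean of the 3 saline libraries, for 3 marker sums and 12 members. Light symbols are saline and dark symbols dex libraries, and the shape gives the replicate. The third dex library (dark triangle) lies on the other side of 100% from the other 2 dex libraries for the pregranulosa, surface and stromal sums and for Wnt6, Lgr5 and Sfrp1, and on the same side for Dkk2, Sfrp2, Sfrp5, Fzd8, Wnt4, Rspo1, Wnt9a, Wnt5a and Rspo3.

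The sequence around the transcription start was examined for the called members. Promoter windows of 300 bases (250 before to 50 after the start) were taken from RefSeq on GRCm38.p6, where 29 of the 44 members had an entry, with 32 windows in all. Among the called members these were Dkk2, Sfrp2, Sfrp5, Wnt4 and Wnt9a. The windows of Dkk2 and Sfrp2, the called members with the lowest adjusted p in somatic cells, and of Wnt9a, a ligand that rose, are shown for comparison, all on the plus strand of the chromosome. Capitals mark a glucocorticoid receptor half-site (AGAACA, or TGTTCT read on the other strand).
Dkk2, chr3:132085042-132085341: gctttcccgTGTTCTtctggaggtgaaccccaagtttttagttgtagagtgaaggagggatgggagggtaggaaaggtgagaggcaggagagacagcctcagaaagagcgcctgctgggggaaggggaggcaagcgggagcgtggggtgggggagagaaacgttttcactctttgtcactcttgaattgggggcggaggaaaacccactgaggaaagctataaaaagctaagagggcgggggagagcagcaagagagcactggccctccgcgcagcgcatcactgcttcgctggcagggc
Sfrp2, chr3:83766071-83766370: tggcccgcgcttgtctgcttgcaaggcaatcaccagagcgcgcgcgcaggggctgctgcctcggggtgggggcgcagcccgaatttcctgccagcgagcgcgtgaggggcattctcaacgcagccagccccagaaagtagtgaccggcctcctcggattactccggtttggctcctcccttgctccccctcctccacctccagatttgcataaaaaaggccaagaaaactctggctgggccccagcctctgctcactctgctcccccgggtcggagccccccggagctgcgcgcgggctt
Wnt9a, chr11:59306680-59306979: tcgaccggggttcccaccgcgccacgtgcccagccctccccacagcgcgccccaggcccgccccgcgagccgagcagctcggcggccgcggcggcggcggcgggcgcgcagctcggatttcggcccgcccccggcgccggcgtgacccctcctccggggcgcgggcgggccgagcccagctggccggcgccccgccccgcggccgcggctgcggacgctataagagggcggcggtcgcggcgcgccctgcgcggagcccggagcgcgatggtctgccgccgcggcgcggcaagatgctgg

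The Dkk2 window held 1 half-site, near its upstream end, and those of Sfrp2, Sfrp5, Wnt4 and Wnt9a held none. A half-site on either strand occurred in 19% of all 32851 windows and in 4 of 32 member windows (Dkk2, Fzd4, Wnt5b and Wnt8b). The full palindrome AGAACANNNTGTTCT was in 3 windows of the whole table and in 0 of the members. The TCF/LEF heptamer CTTTGAT was in 3.73% of all windows and in those of Wnt5b and Wnt11 among the members. Base composition differed between the windows shown, with 57.7% G and C for Dkk2, 66% for Sfrp2 and 83.3% for Wnt9a, and the median of the member windows was 68.3% against 52.7% for all. These matches are descriptions of the letters only.

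In germ cells dex called none of the 31 members tested. Over all genes 35 of 16857 (0.208%) were called in germ cells, and 1963 had an unadjusted p under 0.05, among them 1 member (Rspo1). DESeq2 and every other setting tried also called 0 members. With 1 library left out, only 17 to 81 of all genes were called. With so few calls over all genes, 0 calls do not set the members apart. The lowest adjusted p was 0.388 for Rspo1, and the dex and saline groups overlapped for all 31, whereas they did not overlap for 16.9% of all genes tested in germ cells. Of the members expressed at the highest germ cell levels, Lgr4 was at 120.1, 109 and 106 CPM after saline and 91.0, 100.5 and 108 CPM after dex (-0.15, SE 0.07, edgeR adjusted p = 0.479). Fzd7 was at 18.6, 23.6 and 23.3 CPM after saline and 21.8, 22.0 and 24.5 CPM after dex (0.08, SE 0.12, edgeR adjusted p = 0.832). The 3 ligands called higher in germ than in somatic cells after dex were not called either, with Wnt3 at -0.26 (SE 0.32, edgeR adjusted p = 0.796), Wnt8a at 0.30 (SE 0.50, edgeR adjusted p = 0.851) and Wnt9b at -0.40 (SE 0.32, edgeR adjusted p = 0.663), the latter at 2.52, 2.77 and 2.9 CPM after saline and 1.57, 1.43 and 3.1 CPM after dex.

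The 3 largest positive fold changes in germ cells were in members with high somatic levels. Rspo1 was at 2.06, 2.18 and 3.08 CPM after saline and 2.48, 5.57 and 4.0 CPM after dex (0.73, SE 0.31). Wnt4 was at 1.74, 3.84 and 4.58 CPM after saline and 1.77, 8.42 and 5.79 CPM after dex (0.66, SE 0.46), and Wnt6 at 3.61, 4.6 and 6.32 CPM and 2.16, 9.98 and 10.1 CPM (0.63, SE 0.42). The pregranulosa marker sum in the same libraries was 34.8, 58.8 and 73.9 CPM after saline and 25.9, 100.5 and 81.2 CPM after dex. The first library of each group was the lowest of its group for the marker sum, Wnt4, Wnt6 and Rspo1. The part of somatic RNA in these values was not tested.

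**Figure D4:**
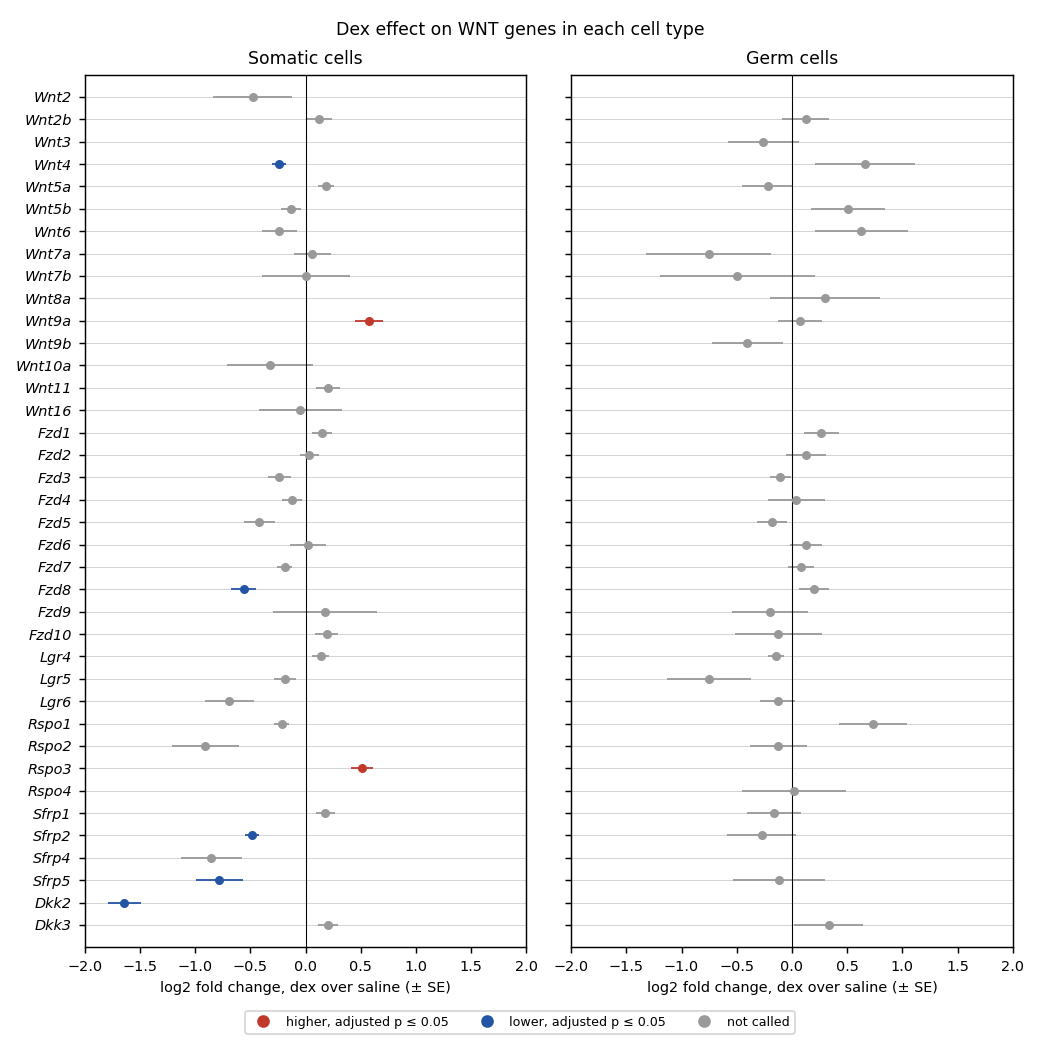
Log2 fold change of dex over saline for each member tested in somatic cells (left) or germ cells (right), with the standard error implied by the edgeR test. Blue and red points passed an adjusted p of 0.05. In somatic cells 7 points are coloured, from -1.64 (Dkk2) to 0.57 (Wnt9a), and in germ cells none is.

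Whether dex acted differently in the 2 cell types was tested as the difference of the fold changes, germ minus somatic, over all 12 libraries. Germ and somatic libraries of the same number were treated as independent in this test. Of 38 members tested 1 was called, Fzd8, against 1.62% of all 19390 genes. In germ cells Fzd8 was at 13.55, 15.64 and 14.56 CPM after saline and at 15.56, 15.48 and 18.56 CPM after dex, while it fell in somatic cells, and the difference was 0.75 on the log2 scale (SE 0.17, edgeR adjusted p = 0.0392). The call was lost in 9 of 18 alternatives (highest adjusted p 0.118), each of which left out 1 library. It was kept without the first dex germ cell, the second saline germ cell or the third dex somatic library. After dex Fzd8 no longer passed the test between germ and somatic cells (-0.29, SE 0.14, edgeR adjusted p = 0.0766; after saline -1.01, SE 0.11, edgeR adjusted p = 8.61e-07). For Rspo1 the difference was 0.93 (SE 0.26, edgeR adjusted p = 0.0917) and for Wnt4 0.88 (SE 0.40, edgeR adjusted p = 0.307), neither called. The other somatic calls were not shown to be particular to somatic cells: the difference was 0.96 with an SE of 0.84 for Dkk2 and 0.20 with an SE of 0.23 for Sfrp2, and -0.91 with an SE of 0.57 for Rspo3.

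The rest of the pathway was described with 59 genes outside the name rule, grouped by role. In somatic cells 56 were tested and 7 called (8.18% of all genes were called), 3 higher and 4 lower. Of the 4 that fell, 3 encode extracellular or membrane modulators, a group in which 15 genes were tested and 1 rose. Frzb, the remaining member of the secreted Frizzled-related family, was at 3.95, 4.71 and 4.73 CPM after saline and at 2.21, 1.91 and 2.35 CPM after dex (-1.04, SE 0.26, edgeR adjusted p = 0.0227). Sostdc1, a secreted protein that binds Lrp co-receptors and bone morphogenetic proteins, was at 10.7, 8.58 and 7.94 CPM and 5.31, 4.39 and 5.34 CPM (-0.85, SE 0.19, edgeR adjusted p = 0.0130). Trabd2b, a membrane protease that inactivates WNTs, was at 19.9, 19.5 and 20.1 CPM and 13.1, 13.3 and 16.0 CPM (-0.48, SE 0.12, edgeR adjusted p = 0.0276). In each of these genes the dex libraries lay below all saline libraries. Bcl9, a nuclear partner of beta-catenin, fell by 0.29 on the log2 scale (SE 0.07, edgeR adjusted p = 0.0151). Of 13 alternatives the call was lost in 7 for Trabd2b (highest adjusted p 0.0911), 5 for Bcl9 (0.0767), 4 for Frzb (0.103) and 3 for Sostdc1 (0.0832), and the fit over all 12 libraries lost all 4. Leaving out 1 library lost the call of Trabd2b for any but the third dex library, those of Bcl9 and Frzb for the second dex, the second saline or the third saline library, and that of Sostdc1 for the second dex or the first saline library.

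The 3 that rose have different roles. Ror2, a receptor tyrosine kinase that binds Wnt5a, was at 58.7, 60.3 and 58.4 CPM after saline and at 89.8, 88.6 and 70.1 CPM after dex (0.49, SE 0.09, edgeR adjusted p = 0.00346), with no overlap and a call in all 13 alternatives. Gpc4, a glypican of the cell surface, rose by 0.27 (SE 0.08, edgeR adjusted p = 0.0453) and Tnks2, a tankyrase that marks Axin for destruction, by 0.24 (SE 0.06, edgeR adjusted p = 0.0308). The call of Gpc4 was lost in 8 of 13 alternatives (highest adjusted p 0.528) and that of Tnks2 in 6 (0.143), among them each that left out 1 saline library, and also without the second or the third dex library for Gpc4 and the first dex library for Tnks2.

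Genes that canonical WNT signalling induces were examined next, since they are a common readout of the pathway. Of 10 feedback genes tested in somatic cells 0 were called by edgeR, against 8.18% of all genes. An unadjusted p under 0.05 was found for 3, against 3453 of all 16556 genes tested. Neither count sets the feedback genes apart from all genes. The 3 went in both directions: Tcf7 at -0.35 (SE 0.12, edgeR adjusted p = 0.0849), Apcdd1 at 0.24 (SE 0.08, edgeR adjusted p = 0.0997) and Nkd2 at 0.23 (SE 0.10, edgeR adjusted p = 0.216). The dex libraries of Tcf7 lay below, and those of Apcdd1 above, all saline libraries, and those of Nkd2 overlapped them. Axin2 was at 123, 128 and 132 CPM after saline and at 136, 124 and 151 CPM after dex, with overlap (0.11, SE 0.07, edgeR adjusted p = 0.454). Nkd1 (0.02, SE 0.06), Rnf43 (-0.18, SE 0.16), Znrf3 (-0.06, SE 0.09) and Lef1 (-0.17, SE 0.09) were not called either, nor were the secretion genes Wls (-0.04, SE 0.07) and Porcn (0.12, SE 0.19). Ctnnb1, which encodes beta-catenin, was at 800.3, 810.2 and 825 CPM after saline and 792, 775 and 812 CPM after dex, and the co-receptor gene Lrp6 was not called at 0.14 (SE 0.06, edgeR adjusted p = 0.203). Wif1 lay at 0.45 to 0.878 CPM in the somatic libraries and was not called. Of the 52 other WNT pathway genes tested in germ cells 0 were called by edgeR, against 0.208% of all genes. An unadjusted p under 0.05 was found for 7, against 1963 of all 16857 genes tested.

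**Figure D5:**
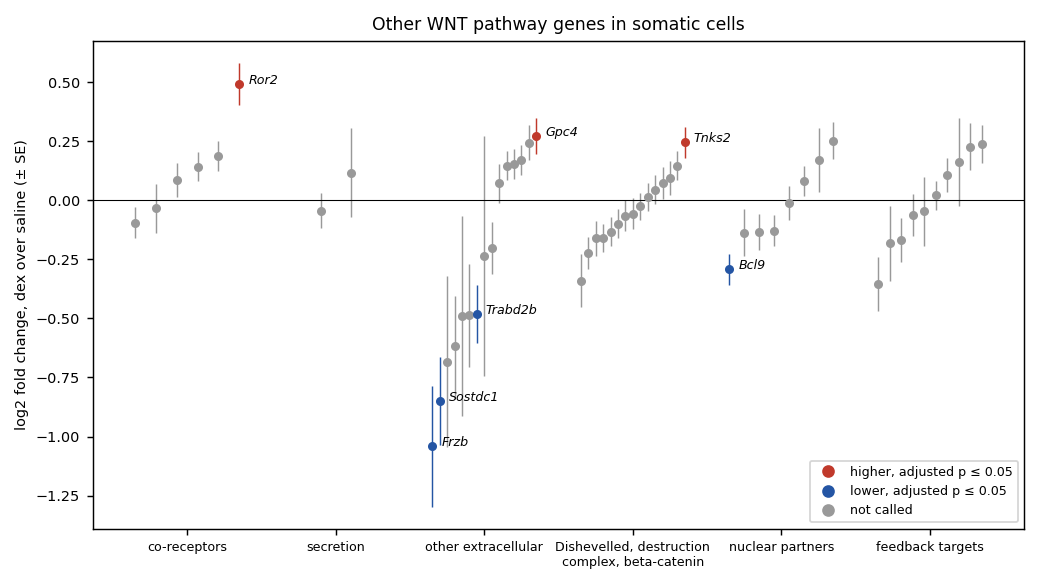
Log2 fold change of dex over saline in somatic cells for the 56 other WNT pathway genes tested, in 6 groups by role, ordered by value within a group, with standard errors. Coloured and named points passed an adjusted p of 0.05. Of the 7, 4 lie among the extracellular modulators (Frzb, Sostdc1, Trabd2b and Gpc4) and none among the feedback targets.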

How the data were processed

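Each of the 12 libraries was poly-A RNA from sorted cells. The authors aligned read pairs to mm10 with HISAT2 2.0.5 and counted fragments per gene with featureCounts 1.5.0-p3, and deposited raw counts and FPKM values computed from counts, gene length and depth. The annotation release and the strand and multi-mapping settings were not given in the sources used here. Exons of 7 members (Fzd5, Fzd6, Rspo3, Sfrp2, Wnt5a, Wnt7b and Wnt11) overlap an antisense gene (GENCODE annotation of GRCm38), so their counts are uncertain. Tables with the authors' own DESeq2 1.20.0 comparisons were not used.

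Counts were tested with edgeR 4.0.16 in R 4.3.3 (quasi-likelihood test, TMM scaling, filterByExpr, BH adjustment over all genes tested, threshold 0.05, no fold minimum), within 1 cell type for dex, within 1 treatment for cell type and over all 12 libraries for the difference. Standard errors follow from the F statistic. Levels in CPM use TMM factors of all 12 libraries. Alternatives were DESeq2 1.42.0, other scaling factors, no filter, a replicate block, 1 fit over all libraries, limma 3.58.1 on log2(FPKM + 0.1), and each library left out. The script was tested on simulated data. With 3 libraries a group, p-values measure only the spread between these pools.

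Members and gene lists were chosen with earlier results of these data known. Values in every library of a cell type, though not always of both, were given for members called in a dex test or in the difference. The same was done for the highest member of each family by FPKM in each cell type, and for Wnt4, Wnt5a, Wnt9b, Rspo1, Lgr5 and Sfrp1. Dkk1, chosen with these, was given as a range. Of the other pathway genes, called ones and Axin2, Lef1, Nkd1, Rnf43, Znrf3, Wls, Porcn, Ctnnb1, Lrp6, Frzb and Wif1 were named. Other genes were named after their values were seen.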

Additional observations from a re-analysis of the deposited data

Results flagged for a closer look

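Of the members and the other pathway genes, 4 had a dex effect that differed between germ and somatic cells by the test of the difference itself (edgeR adjusted p of at most 0.05, log2 scale, germ minus somatic), where 1.62% of all genes were called. Of 18 alternatives the call was lost in 11 for Dvl1 (highest adjusted p 0.108), 10 for Gpc3 (0.133), 9 for Tnks2 (0.0931) and 9 for Fzd8 (0.118). Apart from upper-quartile factors for Gpc3 and Tnks2, each of these left out 1 library: for Dvl1 any but the second saline germ cell library, for Gpc3 any but the third dex germ cell, the first saline germ cell or the first saline somatic library, and for Tnks2 any but the first dex germ cell, the second saline germ cell, the second dex somatic or the first saline somatic library. Fzd8 differed by 0.75 (SE 0.17, adjusted p = 0.0392). Dvl1, a Dishevelled gene that relays the Frizzled signal, differed by 0.46 (SE 0.11, adjusted p = 0.0367): it was at 171, 207 and 182 CPM in saline and 226, 216 and 214 CPM in dex germ cells, and at 64.6, 62.4 and 67.5 CPM in saline and 55.1, 57.3 and 53.5 CPM in dex somatic cells, and was called within neither cell type (germ cells 0.25, adjusted p = 0.271, somatic cells -0.22, adjusted p = 0.0693). Tnks2 differed by -0.47 (SE 0.10, adjusted p = 0.0275), with a fold change of -0.21 in germ cells (adjusted p = 0.294) and a rise of 0.24 in somatic cells. Gpc3, a glypican gene, differed by -0.44 (SE 0.10, adjusted p = 0.0351), with fold changes of -0.29 (adjusted p = 0.296) and 0.15 (adjusted p = 0.188).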

How the results depend on the processing

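The germ cell test called 0 members under every alternative run, and with 1 library left out it called only 17 to 81 of all genes. In somatic cells DESeq2, other size factors and the replicate block each called the same 7 members or, with upper-quartile factors, 8, with 8.13% to 9.18% of all genes called. The fit over all 12 libraries called 5 members (without Sfrp5 and Wnt4) and 4.14% of all genes. Without the low-count filter 12 members were called in somatic cells (6.4% of all genes), and leaving out 1 library at a time gave 4 (without the first saline library, 5.19%) to 15 (without the third dex library, 11.1%). For the other pathway genes in somatic cells, 1 fit over all 12 libraries called 1 (4.14% of all genes called). Leaving out 1 library gave 2 to 8, with 4.41% to 11.1% of all genes called. For the difference of the dex effect DESeq2 called 2 members (Fzd8 and Rspo1, 3.91% of all genes), no filter called 4 (2.01%), and leaving out 1 library gave 0 to 4, with 4 (Fzd8, Rspo1, Wnt4 and Wnt6) without the first dex germ cell library (1.92%) and 0 without any 1 of 9 others (all but the second saline germ cell and the third dex somatic library), where 0.711% to 1.14% of all genes were called. The causes were not tested. Deviations from the group means were correlated between libraries of the same number. The correlations were -0.00455 to 0.0825 for dex against saline somatic libraries, and 0.0663 to 0.121 for germ against somatic libraries. No comparison exceeded 0.1 for every same-numbered pair, and values this low cannot show whether libraries of a number were related. With the number as a block 7 members were called in somatic cells, 0 in germ cells and 1 in the difference. The pathway count in somatic cells rose from 7 to 10, while the share of all genes called rose from 8.18% to 9.18%. In the difference this block joined dex and saline libraries by number and did not pair germ with somatic libraries within a treatment. Between germ and somatic cells each library correlated best with its own number, and the block gave 31 members after saline and 32 after dex. The labels do not say whether germ and somatic libraries of a number came from the same pools. The main tests treated them as independent, and no run of the difference paired them, so its standard errors do not use any such pairing. Among the named genes 2 changed sign, neither of them called: Sfrp1 in germ cells ranged from -0.36 to 0.061, the latter without the third dex germ cell library, and the Wnt9b difference (-0.65 to 0.65 over libraries left out) was at 0.078 and 0.14 without the first or the second dex germ cell library, 0.10 and 0.65 without the first or the third dex somatic library, and 0.24 without the first saline somatic library. Members near the floor of 3 counts cannot show a fall at this depth, although a large rise could be seen.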

Other observations

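The other WNT pathway genes were unevenly divided between the cell types. Of 55 tested between saline germ and somatic cells, 41 were lower and 9 higher in germ cells, with a median log2 difference of -1.71 (edgeR adjusted p of at most 0.05, 86.1% of all genes called). Wls, which carries WNT proteins to the cell surface, had a saline mean of 4.23 ± 2.53 CPM in germ cells against 172 ± 6.07 CPM in soma (SD, n = 3), and its germ cell values were lowest in the first library of each treatment (1.42, 4.96 and 6.32 CPM after saline, 2.29, 8.36 and 5.61 CPM after dex), as the pregranulosa marker sum was. Porcn, which acylates WNT proteins, was not called (log2 difference -0.29, SE 0.21, edgeR adjusted p = 0.198). Axin2 was at 5.15 ± 0.163 FPKM in germ cells and 22.5 ± 0.81 FPKM in somatic cells, and Nkd1 at 12.1 ± 0.792 and 43.7 ± 1.79 FPKM (SD, n = 3).

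The 9 genes that were higher in saline germ cells, named after their values were seen, were Dvl1, Axin1, Apc, Tnks, Bcl9, Ctnnbip1, Znrf3, Tcf7 and Kremen1. The largest were Dvl1, with 187 ± 18.4 CPM in germ cells against 64.8 ± 2.53 CPM in soma (log2 difference 1.52, SE 0.08, edgeR adjusted p = 1.18e-10), and Axin1, a scaffold of the beta-catenin destruction complex, at 235 ± 3.57 and 88.5 ± 8.71 CPM (1.40, SE 0.08, edgeR adjusted p = 2.17e-10). Znrf3, which removes Frizzled receptors from the membrane, was 0.55 higher (SE 0.10, edgeR adjusted p = 8.24e-05), whereas its relative Rnf43 was lower in germ cells at -3.83 (SE 0.18, edgeR adjusted p = 2.25e-11).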
